A study of Arabidopsis thaliana with 2 samples.

Results

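In 6 genes of Arabidopsis thaliana, junctions in the deposited table of alternative 5′ splice sites leave the 3′ UTR and land over 10 kb away at the start of a run of A. The genes are RD21A (AT1G47128), MOS6 (AT4G02150), XTH25 (AT5G57550), AGP31 (AT1G28290), AT1G14950 and ATL5 (AT3G25520), the last listed by the authors under its neighbour GLYR1 (AT3G25530). Rows were taken where the joined sites lay over 10 kb apart and the longer exon lay in one of these genes, which gave 14 of the 70 rows of the table and of the 270 rows in the 4 splicing tables. Another 17 rows of the table span over 10 kb in other genes and 39 do not. The members were selected on measured values: the span of the junctions, the A-rich ends, and the read counts by which the authors called each row different between the genotypes. Every genotype value below is therefore a description without a test.

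RNA came from embryos of lefko mutant plants and of wild-type plants, both of the Col-0 ecotype and both taken between the globular and the heart stage from siliques. The labels give 1 sample per genotype, and name the mutant lefko1 in the sample and lefko2 in the protocol and tables. They do not name the mutated gene or say how many embryos were pooled. The tables hold no expression levels, so the labelled tissue was not checked against markers. Each count cell joins 3 whole numbers, called values here, whose origin no label gives, so their spread may be technical. Event reads per row ranged from 88 to 5176 in the lefko mutant and from 62 to 999 in the wild type.

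Messenger RNA ends are made by a cleavage complex that cuts the transcript in the 3′ UTR and adds a tail of A that the genome does not encode. Plant genes often use several cleavage sites close to each other, and the AATAAA signal of animal genes is only loosely kept in plants. A read that holds the start of a tail therefore stops matching the genome at the cleavage site. The paired ends are treated here as candidate poly(A) sites. Whether the reads behind them hold tails was not tested, because the reads themselves were not analysed here.

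In each row a shorter and a longer form of the last exon end at an upstream and a downstream site in the 3′ UTR, and both are joined to 1 far end. The upstream site of each gene is shown first, because its skipping reads are given for every value below. Shown are 20 bases before the site, then in capitals the pair of bases that would open an intron, then the next bases. Sequences were read from the RefSeq assembly TAIR10.1 and run 5′ to 3′ on the transcript's strand.
RD21A upstream site (chr1:17282908-17282937, minus strand): ttaattcaagaaaattgaatATttatggct
MOS6 upstream site (chr4:950652-950681, minus strand): tcatttggggaagagaaacaATtattctgt
XTH25 upstream site (chr5:23304880-23304909, minus strand): gcgtgagttatgttggttcaATaaatgtta
AGP31 upstream site (chr1:9889122-9889151, minus strand): taaaaatagcagctttcaagATgattccat
AT1G14950 upstream site (chr1:5157370-5157399, minus strand): tttgatgttgttatggtgtaGTattggtgt
ATL5 upstream site (chr3:9269404-9269433, minus strand): ggatacattttctttgaagtATcattatct

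The far ends are shown because they are what the junctions share. Each line gives 10 bases before the far end and the 20 bases that follow, with the A run in capitals.
RD21A far end (chr1:17229158-17229187, minus strand): tctggtattcAAAAAAAAAAAAAAAAAAct
MOS6 far end (chr4:916457-916486, minus strand): aaagtttttcAAAAAAAAAAAAAAAAcaga
XTH25 far end (chr5:23249787-23249816, minus strand): taatattttcAAAAAAAAAAAAAAAAAAct
AGP31 far end (chr1:9832796-9832825, minus strand): tttgacattcAAAAAAAAAAAAAAAAAAAA
AT1G14950 far end (chr1:5137973-5138002, minus strand): ttcatcaaagAAAAAAAAAAAAAAAAAAAA
ATL5 far end (chr3:9211784-9211813, minus strand): tcatattatcAAAAAAAAAAAAAAAAgaag

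All 6 far ends opened with at least 16 A without a break, from 16 in MOS6 and ATL5 over 18 in RD21A and XTH25 and 21 in AT1G14950 to 24 in AGP31. Of their first 20 bases 18 to 20 were A. All 13 far ends of the other rows over 10 kb also began with at least 16 A. Among the rows within 10 kb none of the 33 far ends had 12 or more A in its first 20 bases, and their median was 6. The near sites themselves were not followed by an A-rich stretch: the 18 sites of the 6 genes had 4 to 9 A in the next 20 bases, with a median of 6, which is also the median after 43366 annotated mRNA ends. Of those annotated ends 4.38% were followed by 12 or more A, and 0 of the 18 near sites were.

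**Figure D1:**
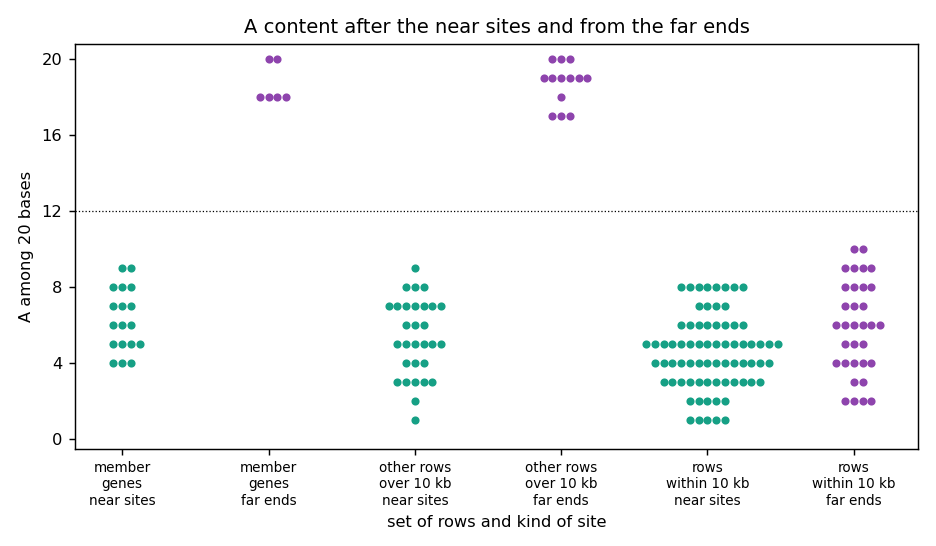
Number of A among 20 bases after each near site (green) and from each far end (purple), for the 6 genes, for the other rows over 10 kb and for the rows within 10 kb; each point is 1 distinct site and the dotted line marks 12 A. Far ends of the 6 genes lie at 18 to 20 A, while the near sites lie at 4 to 9.

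The pairs of bases at the junction ends were not those of common introns in 5 of the 6 genes. Nuclear introns mostly begin with GT and end with AG. In 12 of the 14 rows the junction ran from AT to TC at both near sites. Only the 2 rows of AT1G14950 ran from GT to AG at both. In the other rows over 10 kb 12 of 17 ran from AT to TC at both sites and 2 from GT to AG, whereas 38 of the 39 rows within 10 kb ran from GT to AG at both sites. AT followed 15 of the 18 near sites and 10.8% of annotated mRNA ends. All 14 rows lie on the minus strand, as do all 17 other rows over 10 kb and 26 of the 39 rows within 10 kb. The next base of the genome after 15 of the 18 near sites was therefore A, so at those sites the A could belong to the near exon or to the A run.

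Spans were measured from the downstream site of each pair to the far end, so junctions from the upstream site are longer. They were 19341 to 19346 bases in AT1G14950, 34132 to 34134 in MOS6 and 53677 to 57587 in the other 4 genes. The 10 kb limit separates rows that are far apart in this measure: the shortest span above it was 11558 bases, in the tubulin gene TUA6, and the longest below it was 1007 bases, in the transcription factor gene STK. The long-exon share of the TUA6 row was 68.6% of 440 lefko reads and all of 381 wild-type reads, and that of the STK row 95.8% of 24 lefko reads and 64.0% of 89 wild-type reads. The minus strand of the 5 nuclear chromosomes holds 2122 runs of at least 16 A. For RD21A, MOS6 and AGP31 the far end was the nearest such run downstream of the gene. Between gene and far end, AT1G14950 and ATL5 had 1 nearer run and XTH25 had 2. Of the 13 far ends in the other rows over 10 kb, 12 were the nearest run.

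No far exon equalled an annotated exon, and 4 of the 6 lay in no annotated gene. The listed far exons of RD21A, XTH25, AT1G14950 and ATL5 were 16 to 22 bases long, hardly more than the A run. The far exon of MOS6 was 191 bases long (chr4:916286-916476). It began 33 bases inside PIT1 (AT4G02075), which encodes a RING/FYVE/PHD zinc finger protein, 62 bases before its start codon, and ended where an annotated PIT1 exon ends. The far exon of AGP31 was 940 bases long (chr1:9831876-9832815). It began 214 bases after the stop codon of AT1G28140, which encodes an integral membrane family protein, and ended at that gene's annotated end. Both genes lie on the minus strand.

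All 18 near sites lay after the stop codon, and 17 of them before the annotated gene end. The median site was 105 bases before that end, in annotated 3′ UTRs of 230 to 390 bases. RD21A, which encodes a papain-like cysteine protease with a granulin domain, had its sites 169, 159, 146 and 106 bases before the gene end. MOS6, the nuclear import receptor importin alpha 3, had them at 116, 65 and 63 bases. XTH25 belongs to the xyloglucan endotransglucosylase/hydrolases, which cut and rejoin wall xyloglucan, and had them at 108, 104 and 82 bases. ATL5 encodes cytosolic ribosomal protein L5, the 5S rRNA binding protein of the large subunit, and had them at 137, 114 and 108 bases. Every site of these 4 genes thus lay at least 63 bases before the annotated end. AGP31, a cell wall arabinogalactan protein, had its sites 31 and 28 bases before the gene end, which is 7 and 4 bases before the end of its shorter annotated transcript. AT1G14950, annotated as a polyketide cyclase/dehydrase and lipid transport family protein, had sites 44 and 3 bases before the gene end and 2 bases past it. The last of these is the only near site past an annotated gene end.

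**Figure D2:**
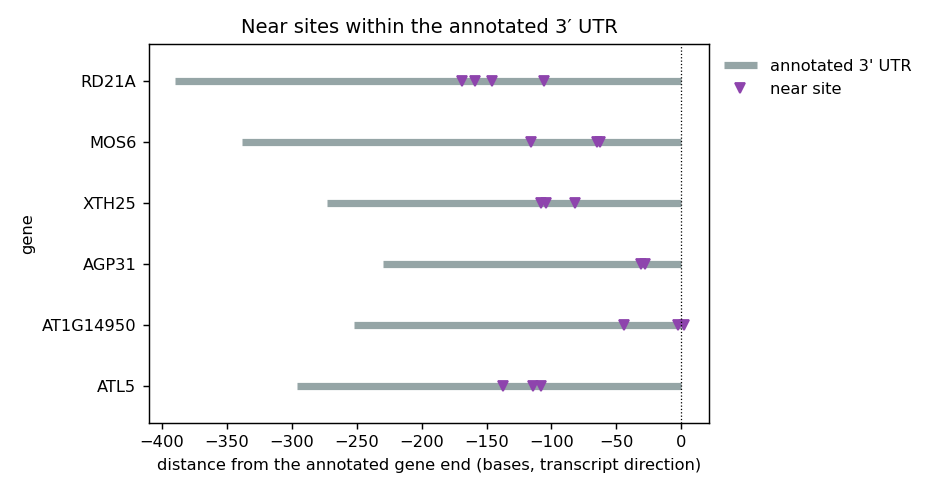
Position of the near sites (purple triangles) along the stretch from stop codon to annotated gene end (grey bars) in each gene; the x axis gives bases from the annotated gene end, with negative values before it. The sites of AT1G14950 and AGP31 lie closest to the end, at 44 bases before it to 2 bases past it, and those of RD21A farthest, at 106 to 169 bases.

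The hexamer AATAAA was searched on the transcript's strand in the 40 bases before each site. It was found before all 3 XTH25 sites, ending 24, 28 and 21 bases before them, and before both AGP31 sites, ending 16 and 19 bases before them. The same hexamer precedes the upstream and the middle XTH25 site, and another the downstream one, while both AGP31 sites share a hexamer. These 5 of 18 sites make 27.8%, against 7.56% of annotated mRNA ends and 6 of the 30 near sites of the other rows over 10 kb. No match before the sites of the other 4 genes says only that these letters are not in this window.

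The reads at the upstream site are given for each gene in every value. They are the skipping reads of the table and are the same in each row that shares an upstream site, so rows of 1 gene are not separate evidence. In 4 genes they were fewer in the lefko mutant and in 2 genes more numerous. RD21A had 0, 0 and 0 such reads in the 3 lefko values and 89, 78 and 66 in the wild-type values. ATL5 had 0, 0 and 0 in the lefko mutant and 156, 83 and 38 in the wild type. MOS6 had 0, 0 and 0 in the lefko mutant and 7, 13 and 10 in the wild type. The values of the genotypes did not overlap in these 3 genes, which hold 8 of the 14 rows. In the whole table, 42.9% of the 70 rows had 3 lefko skipping-read values below the 3 wild-type values. AGP31 had 0, 1 and 0 in the lefko mutant and 119, 0 and 57 in the wild type, so its second wild-type value overlaps the mutant. XTH25 went the other way, with 451, 431 and 708 in the lefko mutant and 77, 0 and 0 in the wild type. AT1G14950 did too, with 486, 400 and 515 in the lefko mutant and 0, 4 and 0 in the wild type. Neither of these genes had overlapping values at this site, in 4 of the 14 rows, against 10% of the 70 rows with all lefko values above the wild type. Nothing is read from these shares either, since the authors listed the rows for these reads.

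**Figure D3:**
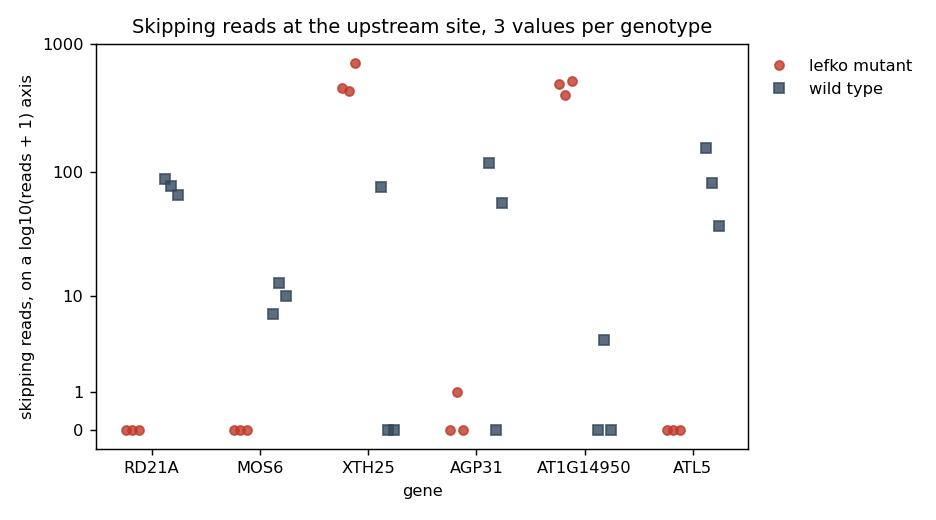
Skipping reads at the upstream site of each gene on a log10(reads + 1) axis, with the 3 lefko values (red circles) left of the 3 wild-type values (grey squares). Lefko values lie at 0 or 1 in RD21A, MOS6, AGP31 and ATL5, and at 400 to 708 in XTH25 and AT1G14950.

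The total of event reads is given next to these values. The row with the most event reads in RD21A had 178, 108 and 140 reads in the lefko mutant and 259, 233 and 118 in the wild type, a ratio of 0.698 (95% exact counting interval 0.616 to 0.792). MOS6 had 36, 23 and 47 reads in the lefko mutant and 45, 35 and 38 in the wild type, a ratio of 0.898 (0.684 to 1.18). AGP31 had 177, 11 and 8 in the lefko mutant and 129, 6 and 144 in the wild type, a ratio of 0.703 (0.582 to 0.846), with most of its reads in 1 lefko and 2 wild-type values. ATL5 had 102, 86 and 145 in the lefko mutant and 483, 348 and 168 in the wild type, a ratio of 0.333 (0.294 to 0.378). XTH25 had 530, 480 and 855 in the lefko mutant and 95, 6 and 7 in the wild type, a ratio of 17.3 (14.2 to 21.2). The XTH25 row with the fewest reads had 43, 33 and 109 in the lefko mutant and 13, 41 and 8 in the wild type, a ratio of 2.98 (2.23 to 4.04). AT1G14950 had 2301, 1202 and 1673 in the lefko mutant and 24, 46 and 21 in the wild type, a ratio of 56.9 (46.2 to 70.8). The median ratio over the 270 rows of all tables was 0.472, and that over the other 17 rows over 10 kb was 0.678. Both medians take every row, not the row with the most reads of each gene. The last 2 genes, with more upstream-site reads in the mutant, thus also had more event reads there, and the part of read number in their shares was not tested. Intervals cover counting error only, and reads are not independent molecules.

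The long-exon share, that of inclusion reads among all event reads, was higher in the lefko mutant in 10 of the 14 rows, against 67.1% of all 70 rows of the table. All 3 lefko values lay above all 3 wild-type values in 8 rows (32.9% of the 70 rows did) and below them in 3 (22.9%), and in 3 rows the values overlapped. Nothing is read from these shares, because the rows were listed for this contrast. In 9 of the 14 rows the lefko mutant had 0 skipping reads, as had 24.3% of the table, these rows included. The same held in 4 of the other 17 rows over 10 kb and in 4 of the 39 rows within 10 kb. Rows that share an upstream site repeat the same skipping reads. In the authors' deposited table the FDR of the 14 rows ran from 0, listed for 5 of them, to 0.0308.

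All lefko event reads in the 3 RD21A rows were inclusion reads, which need not be junction reads, as described below. For the sites 10 bases apart, the lefko shares were 100%, 100% and 100% (143 reads, exact Clopper-Pearson 95% interval 97.4 to 100) and the wild-type shares 49.7%, 51.2% and 32.0%, which sum to 46.3% of 434 reads (41.5 to 51.1). For the sites 23 bases apart, all of 273 lefko reads and 55.7% of 526 wild-type reads (51.3 to 60.0) were inclusion reads. For the sites 63 bases apart these were all of 426 lefko reads and 61.8% of 610 wild-type reads (57.8 to 65.7). By the limit of 3 reads for a count of 0, an upstream share of up to 0.704% of these 426 reads is allowed; this limit is one-sided and lies below the end of the two-sided interval. The third wild-type value was the lowest in each of the 3 rows, at 30.5% to 44.1%.

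MOS6 also had only inclusion reads in the lefko mutant. The shares of the sites 51 bases apart were 100%, 100% and 100% in the lefko mutant (106 reads, 96.6 to 100) and 84.4%, 62.9% and 73.7% in the wild type (118 reads, 74.6%, 65.7 to 82.1). Those of the sites 53 bases apart were 100% of 99 lefko reads and 70.6% of 102 wild-type reads (60.8 to 79.2). The 2 downstream sites lie 2 bases apart, so these rows are nearly 1 event. The gene had only 30 upstream-site reads in the wild type, and by the same one-sided limit of 3 reads an upstream share of up to 2.83% of the 106 lefko reads is allowed.

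AGP31 had 1 row, whose sites lie 3 bases apart. Its lefko shares were 100%, 90.9% and 100% (196 reads, 99.5%, 97.2 to 100.0) and its wild-type shares 7.75%, 100% and 60.4% (279 reads, 36.9%, 31.2 to 42.9). The wild-type values spanned nearly the whole scale, and the 100% rests on 6 reads. The genotypes overlap, and the difference was 62.6 points with all values, 37.5 points without the first wild-type value and 87.6 points without the third.

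AT1G14950 had a lower long-exon share in the lefko mutant. For the sites 41 bases apart, the lefko shares were 65.5%, 66.1% and 66.4% (4124 reads, 66.0%, 64.6 to 67.5) and the wild-type shares 100%, 90.7% and 100% (90 reads, 95.6%, 89.0 to 98.8). For the sites 46 bases apart, they were 78.9%, 66.7% and 69.2% in the lefko mutant (5176 reads, 72.9%) and 100%, 91.3% and 100% in the wild type (91 reads, 95.6%). The lefko values are close together in the shorter pair, and neither pair overlaps the wild type. The wild-type share rests on 4 skipping reads, all in 1 value.

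XTH25 had 3 near sites, joined in pairs, and its shares went both ways. For the sites 4 bases apart, the lefko shares were 7.39%, 3.58% and 5.09% (1680 reads, 5.36%) and the wild-type shares 6.10%, 100% and 100% (134 reads, 42.5%). For the sites 26 bases apart, they were 14.9%, 10.2% and 17.2% in the lefko mutant (1865 reads, 14.7%) and 18.9%, 100% and 100% in the wild type (108 reads, 28.7%). The first wild-type value resembles the lefko values and the other 2 do not. Without it the differences of -37.2 and -14.0 points were -94.6 and -85.3 points, and with it alone they were -0.74 and -4.20 points. For the sites 22 bases apart, the lefko shares were 100%, 100% and 100% (185 reads) and the wild-type shares 100%, 9.76% and 12.5% (62 reads, 29.0%). Here too the first wild-type value equals the lefko values, and without the second the difference of 71.0 points was 33.3 points.

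ATL5 had 3 near sites as well, and all its lefko event reads were inclusion reads in each pair. For the sites 23 bases apart, they were all of 245 lefko reads, against wild-type shares of 72.0%, 65.3% and 79.6% (983 reads, 71.8%, 68.9 to 74.6). For the sites 29 bases apart, they were all of 333 lefko reads, against wild-type shares of 67.7%, 76.1% and 77.4% (999 reads, 72.3%). For the sites 6 bases apart, they were all of 88 lefko reads, against wild-type shares of 41.0%, 98.2% and 41.7% (638 reads, 51.3%). The second wild-type value stands apart in the last pair and comes close to the mutant. Arabidopsis has a second gene for this protein, and how reads shared by the copies were placed was not stated by the submitters. The symbol ATL5 is also carried by a RING finger gene, AT3G62690, which had no row in the 4 tables.

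**Figure D4:**
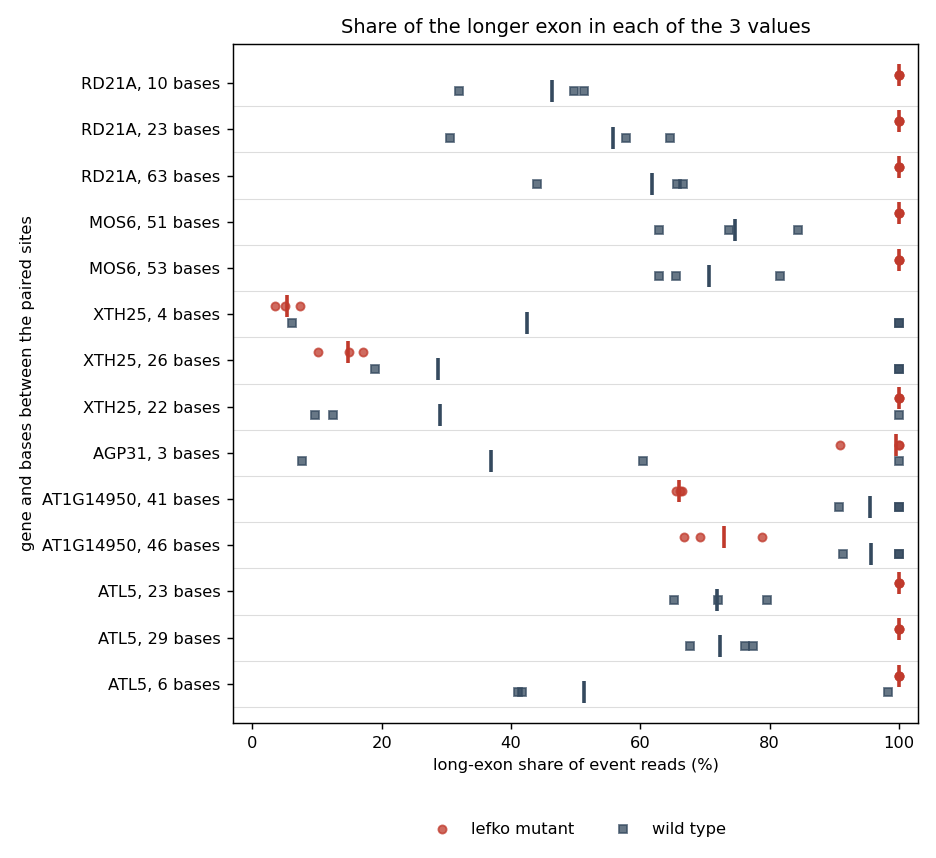
Long-exon share (percent of event reads) in the 3 lefko values (red circles) and the 3 wild-type values (grey squares) for each of the 14 rows, named by gene and bases between the paired sites; vertical ticks mark the share of the summed reads. Lefko values sit at 100% in RD21A, MOS6, ATL5 and the XTH25 row of 22 bases. They lie below the wild type in AT1G14950 and the XTH25 row of 26 bases. They overlap the wild type in AGP31 and the XTH25 rows of 4 and 22 bases.

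The 3 rows of ATL5 and of XTH25 pair the same 3 sites and show what the inclusion reads hold. In each gene, the inclusion reads of the outer pair minus those of the lower pair equalled the inclusion reads of the upper pair minus the junction reads at the middle site. This held exactly in 12 of 12 cases, over both genes, both genotypes and the 3 values. The equality holds if inclusion reads are junction reads at the downstream site plus reads on the segment between the paired sites. Reads on the segment include those of any transcript that runs past the upstream site, so an inclusion read need not be a junction read. Junction and segment reads can be told apart for the upstream and the middle site, and not for the downstream one.

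ATL5 had no lefko junction read at either of these sites. At the upstream site the lefko values were 0, 0 and 0 and the wild-type values 156, 83 and 38, and at the middle site the lefko values were 0, 0 and 0 and the wild-type values 246, 2 and 63. On the segment between them the lefko mutant still had 78, 66 and 101 reads, against 156, 154 and 85 in the wild type. The segment was thus read in all values of both genotypes, and its ranges overlapped, while junction reads numbered 0 per 245 segment reads in the lefko mutant and 588 per 395 in the wild type. The share of 100% for the sites 23 bases apart therefore rests on segment reads alone in the lefko mutant. Within the wild type, the middle site took 61.2%, 2.35% and 62.4% of the junction reads at both sites.

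XTH25 had lefko junction reads at the upstream site only. There the lefko values were 451, 431 and 708, and at the middle site 4 bases on they were 0, 0 and 0, which by the one-sided limit of 3 reads allows a middle share of up to 0.189% of 1590 reads. In the wild type the first value had 77 reads at the upstream and 0 at the middle site, and the other 2 values had 0 at the upstream and 37 and 7 at the middle site. Each value of either genotype therefore had junction reads at a single one of these sites. The segment between them had 36, 16 and 38 lefko reads and 5, 2 and 6 wild-type reads. The lefko share of 5.36% in that pair is made of segment reads alone. On junction reads the middle site took 0% in the lefko mutant and 36.4% of 121 reads in the wild type (27.8 to 45.6), a difference of -36.4 points.

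**Figure D5:**
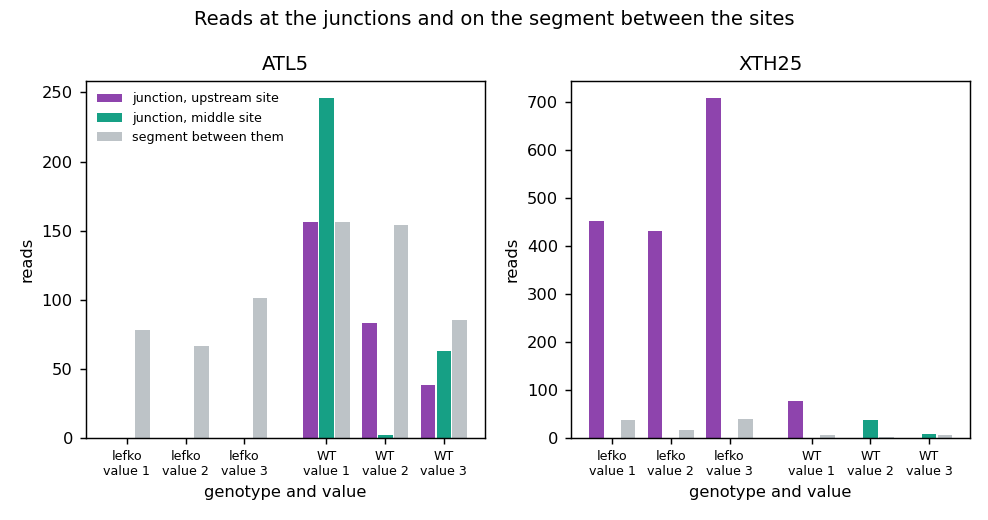
Junction reads at the upstream site (purple) and the middle site (green) and reads on the segment between them (grey) in each of the 3 lefko values, left, and the 3 wild-type values, right, for ATL5 and XTH25; bars start at 0. ATL5 has 66 to 101 segment reads but 0 junction reads in the lefko values, and XTH25 has 431 to 708 upstream-site reads in the lefko values and 0 or 77 in the wild type.

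If inclusion reads add up in the same way in the other genes, row pairs that share an upstream site set a smallest number of junction reads at the nearer downstream site. In MOS6 the site 51 bases on had at least 0, 1 and 12 junction reads in the lefko mutant and at least 7, 0 and 9 in the wild type. In AT1G14950 the site 41 bases on had at least 0, 0 and 0 in the lefko mutant and at least 4, 0 and 0 in the wild type. In RD21A the site 10 bases on had at least 10, 0 and 0 in the lefko mutant and at least 0, 0 and 2 in the wild type, and the site 23 bases on at least 0, 0 and 8 in the lefko mutant. On that reading, which was checked in ATL5 and XTH25 only, each RD21A bound rests on a single lefko value and the MOS6 bound mostly on the third.

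No row of the other 3 tables was listed under these genes or spanned them. Of 37899 annotated nuclear genes 227, or 0.599%, had a row in any table. Of 33 XTH family genes 1 had a row, of 50 arabinogalactan protein genes 1, of 13 papain-like cysteine protease genes 1 and of 9 importin alpha genes 1. In each case it was the gene described here. Genes were matched by symbol or name, so relatives under other names were not counted. None of 16 ATL RING finger genes, 9 genes named for major latex proteins and 20 genes for mRNA 3′ end formation, among them those of cleavage factors and poly(A) polymerases, had a row. The list of major latex proteins was planned to take names holding polyketide cyclase too, but AT1G14950 was not among its 9 genes. That count therefore says nothing on relatives of AT1G14950. The genes that could have had a row are not known from the tables.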

How the data were processed

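The authors deposited 4 tables of splicing events, each with 3 exons per row, inclusion and skipping read counts of both genotypes, a p-value and an FDR. In these deposited tables each count cell joins 3 unlabelled numbers, which is another unit than plain counts, so no count model was run: values were summed and each genotype counted as 1 sample. The submitters' processing notes name HISAT2 2.0.4 and TAIR10, while neither labels nor file headers name the event caller. The largest FDR listed was 0.0500. Starts were read as counted from 0. The accessions equal those of TAIR10.1, whose annotation was used.

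Shares carry exact Clopper-Pearson 95% intervals (scipy 1.17.1), and a count of 0 the limit of 3 reads. A site was called A-rich with 12 or more A in 20 bases. The arithmetic that splits inclusion reads into junction and segment reads was tested on simulated data. Those data were built by the same sums, so the test cannot show how the deposited counts were made. All 6 genes and every row taken by the rule are named, with the genes at their far ends and at the 10 kb limit. Members and lists were chosen with earlier results of these data known. The RING finger list was written before it was seen that ATL5 here is a ribosomal protein gene.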

Additional observations from a re-analysis of the deposited data

How the results depend on the processing

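In all 84 settings that left out 1 value of a genotype the sign of the difference in long-exon share was kept, and rows higher in the lefko mutant numbered 10 in each (10 to 10), as with the mean of the 3 shares or without values under 5 reads. The sign could not turn in the 9 rows with 0 lefko skipping reads, nor in the 3 rows whose lefko values all lay below the wild type. Only AGP31 and the XTH25 sites 4 bases apart could have turned, so the count is no check of the other rows. Without the first wild-type value the XTH25 differences were -94.6 and -85.3 points, which moved them by more than the combined SD of the 3 values of each genotype. With the row of fewest in place of most reads, the ratio of lefko to wild-type reads was 0.330 in place of 0.698 for RD21A, 2.98 in place of 17.3 for XTH25, 45.8 in place of 56.9 for AT1G14950 and 0.138 in place of 0.333 for ATL5; the rows hold different segments. Against the nearest transcript end, the median site lay 95 bases before it in place of 105. All 6 far ends and 0 of 18 near sites were A-rich at 10, 12 or 15 A in 20 bases and in windows of 10 and 30 bases. At 5 kb 31 rows and at 20 kb 24 rows remained, with 14 and 12 of the 6 genes. The setting with junction reads only and the one without wild-type values at 0 skipping reads were chosen after seeing the data. Correction for segment length was not run, since the tables give no lengths that reads can fall on. No paired analysis was possible because the labels give 1 sample per genotype and no replicate numbers. Differences in rows with under 100 wild-type reads rest on few reads, and no replicate check exists.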

Other observations

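The 14 rows of the 6 genes had paired sites a median of 24.5 bases apart, against 23 bases in the other 17 rows over 10 kb. The summed long-exon share was higher in the lefko mutant in 10 of the 14 rows and in 14 of the other 17, and the lefko mutant had 0 skipping reads in 9 of the 14 and in 4 of the other 17. Of the near sites, 3 of 18 in the 6 genes lay within 30 bases of the annotated gene end, against 4 of 30 in the other rows, whose median site was 119 bases before the end of the nearest gene on that strand.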
